A study of Mus musculus with 6 samples.

Results

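The data describe 10 genes of the contractile and cytoskeletal apparatus of myofibroblasts in mouse liver: Acta2, Tagln, Myl9, Cnn1, Cald1, Tpm1, Tpm2, Mylk, Actg2 and Vim. They were taken by symbol, as smooth-muscle markers of activated stellate cells and portal myofibroblasts, from a table of 24532 genes, and the rule uses no measured value. Each of the 10 was in the table, and all 10 were among the 14415 genes left after weakly expressed genes were removed. Livers came from 6 wild-type C57BL/6 mice, each a separate library of polyadenylated RNA. All 6 mice, vehicle mice included, had eaten DDC (3,5-diethoxycarbonyl-1,4-dihydrocollidine) mixed into their food at 0.1% for 4 weeks, and no healthy liver was analysed here. During the closing 2 weeks, 3 mice received injections of recombinant human cytoglobin (rhCYGB), each of 2 mg/kg, with 2 injections a week, and 3 received normal saline. Tissue was collected 2 days after the final injection. The labels give neither sex nor age.

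DDC blocks heme synthesis and injures bile ducts, and scar tissue forms around the portal tracts. In an injured liver, stellate cells and portal fibroblasts turn into myofibroblasts, which lay down collagen and build bundles of actin that pull on the tissue. In these bundles an actin filament is wrapped by tropomyosin and dressed by calponin, transgelin and caldesmon. Myosin pulls on it once myosin light chain kinase has phosphorylated the regulatory light chain. Many smooth-muscle genes are switched on by serum response factor (SRF), which binds a DNA element called the CArG box. Cytoglobin, the injected protein, is a globin made in quiescent stellate cells.

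For Cald1 and Tpm1, the estimated share of transcripts from each start site varied between libraries. Promoter windows are shown for these genes and for the actin and light chain genes that carry CArG-like letters. Each is the 250 bases before a start annotated by RefSeq on GRCm38.p6 (the build also called mm10), read in the direction of transcription. Of the 10 genes, 8 had a window in the RefSeq table, with 2 windows for Cald1. Capitals mark a CArG-like run (CC, then 6 letters of which at least 5 are A or T, then GG), the letters CATTCC or TATAAA, or either of these read on the opposite strand. None of the marked runs overlap.
Acta2, chr19:34255374-34255623, minus strand: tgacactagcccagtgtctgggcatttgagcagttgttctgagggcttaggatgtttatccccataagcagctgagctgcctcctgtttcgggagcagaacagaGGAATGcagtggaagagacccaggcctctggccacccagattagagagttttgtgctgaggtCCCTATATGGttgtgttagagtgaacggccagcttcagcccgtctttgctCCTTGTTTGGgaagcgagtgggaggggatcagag
Myl9, chr2:156775214-156775463, plus strand: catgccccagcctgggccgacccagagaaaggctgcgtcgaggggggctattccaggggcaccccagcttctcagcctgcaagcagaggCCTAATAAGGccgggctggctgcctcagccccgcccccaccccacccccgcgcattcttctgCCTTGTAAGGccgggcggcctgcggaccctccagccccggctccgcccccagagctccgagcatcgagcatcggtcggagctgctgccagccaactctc
Cald1 upstream start, chr6:34598254-34598503, plus strand: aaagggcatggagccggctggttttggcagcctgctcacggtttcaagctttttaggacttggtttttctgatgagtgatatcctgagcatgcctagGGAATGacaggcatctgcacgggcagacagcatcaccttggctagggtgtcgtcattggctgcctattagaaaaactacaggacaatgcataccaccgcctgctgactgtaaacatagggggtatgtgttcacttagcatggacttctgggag
Cald1 internal start, chr6:34709194-34709443, plus strand: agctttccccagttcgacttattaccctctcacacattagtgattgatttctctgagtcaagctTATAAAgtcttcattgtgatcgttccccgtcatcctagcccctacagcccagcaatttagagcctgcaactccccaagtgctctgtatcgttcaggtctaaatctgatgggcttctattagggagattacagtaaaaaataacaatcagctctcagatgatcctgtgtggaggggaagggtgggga
Tpm1 upstream start, chr9:67049214-67049463, minus strand: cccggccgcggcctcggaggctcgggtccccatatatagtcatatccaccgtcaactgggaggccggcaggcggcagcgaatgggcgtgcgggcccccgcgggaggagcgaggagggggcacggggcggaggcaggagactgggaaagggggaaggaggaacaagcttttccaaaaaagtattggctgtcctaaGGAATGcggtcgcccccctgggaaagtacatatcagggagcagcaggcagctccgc
Acta2 held CArG-like runs beginning 84 and 34 bases before its start, and Myl9 at 161 and 99 bases. Of the 4 runs, the one in Myl9 at 161 bases has A or T at every one of its 6 core letters. Windows with such a CArG-like run made up 8.59% of all 32851 promoter windows, and windows with a full A or T core made up 1.47%. CATTCC, the letters bound by TEAD factors, was found on one strand or the other in Acta2, in Mylk, at the upstream start of Cald1 and in Tpm1, against 12.6% of all windows. TATAAA was found at the internal start of Cald1 and in Vim, against 12.4% of all windows. These matches describe letters and do not show binding.

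No member passed the test between the groups. By edgeR's quasi-likelihood test with Benjamini-Hochberg adjustment over 14415 genes, 0 genes had an adjusted p under 0.05, which is 0% of those tested, and the members' adjusted p-values ran from 0.571 to 0.962. At an unadjusted p under 0.05 there were 0 of the 10 members, where 1170 genes in all (8.12%) were found, 297 of them lower (2.06%) and 873 higher (6.06%). DESeq2 called 65 of the 1558 genes it kept after its own filter (4.17%). It gave an adjusted p to Cald1, Tpm1 and Vim alone among the members, from 0.411 to 0.797, and none to the other 7. In CPM (counts scaled to a common library size with TMM factors), 7 of 10 members had a lower mean with rhCYGB, as did 53.3% of all genes tested. The median log2 fold change of the members was -0.22, beside -0.06 for all genes tested. Each library held between 58422095 and 72431373 estimated counts.

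The libraries differed in ways that touch these genes. The TMM factors were 1.07 to 1.45 with vehicle and 1.18, 0.744 and 0.630 in rhCYGB replicates 1 to 3, so values in rhCYGB replicates 2 and 3 are raised by the scaling. In TPM (the authors' length-adjusted FPKM rescaled to one total, without TMM factors) 10 of 10 members had a lower mean with rhCYGB, as did 86.8% of all genes tested. Long transcripts were under-represented in the same libraries. Per doubling of transcript length, log2 CPM deviated from the mean of the 6 libraries by -0.35 in rhCYGB replicate 2 and by -0.33 in replicate 3, against 0.24 in replicate 1 and -0.02 to 0.40 with vehicle. In rhCYGB replicate 3 the ribosomal RNA gene Rn45s took 1.74% of counts, against 0.225% to 0.443% in the other 5 libraries, and the fewest genes had a count (14933, against 15542 to 16290). The part of this in the members' values was not tested. In whole-liver RNA fewer cells of a type and less RNA per cell cannot be told apart.

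**Figure D1:**
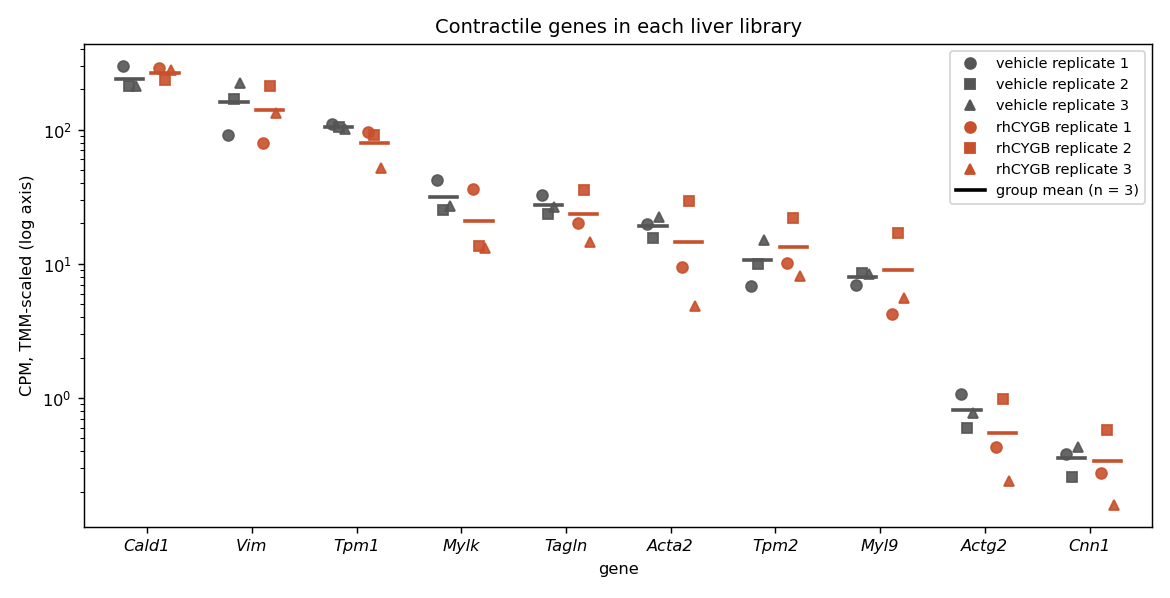
TMM-scaled CPM of the 10 genes on a log axis, ordered by mean level, with vehicle in grey, rhCYGB in orange, a symbol for each replicate and a line at each group mean. The rhCYGB squares (replicate 2) lie above every other library for 5 genes, while the rhCYGB triangles (replicate 3) lie lowest for 6.

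Compared per length, the members spanned from abundant to barely detected. In TPM with vehicle the order was Vim at 183 ± 53.2, Tpm1 at 139 ± 39.6, Cald1 at 134 ± 63.1, Tagln at 39.3 ± 16.7, Acta2 at 16.6 ± 5.55, Myl9 at 15.8 ± 1.95, Tpm2 at 10.4 ± 3.19, Mylk at 9.30 ± 5.19, Actg2 at 1.41 ± 0.769 and Cnn1 at 0.393 ± 0.155 (SD, n = 3). The first 3 did not differ beyond their spread, nor did Acta2 from Myl9 or Tpm2 from Mylk. With rhCYGB, Vim, Cald1 and Tpm1 were again the top 3 and Actg2 and Cnn1 the last pair. Acta2, commonly used to mark activated stellate cells, stood below Tagln and below Tpm1, Cald1 and Vim, which many other cells also express.

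The actins came first in the order of the filament. Acta2 (gene 11475, chromosome 19, 34240336 to 34255373) encodes smooth-muscle alpha actin. Its CPM was 19.9, 15.5 and 22.4 in vehicle livers and 9.46, 29.6 and 4.81 in rhCYGB livers. The rhCYGB libraries held both the highest and the lowest values of the 6, so the groups overlapped and the spread was wider with rhCYGB (14.6 ± 13.2) than with vehicle (19.3 ± 3.46). The log2 fold change was -0.40 (SE 0.61, edgeR adjusted p = 0.744). It was -1.44 without rhCYGB replicate 2 and 0.02 without rhCYGB replicate 3. Actg2 (gene 11468, chromosome 6, 83512909 to 83536251), the gamma actin of gut and other visceral smooth muscle, was scarce, with 90, 42 and 54 estimated counts in vehicle livers and 33, 53 and 9 in rhCYGB livers. Its CPM was 0.810 ± 0.237 and 0.551 ± 0.387, a log2 fold change of -0.55 (SE 0.62). It was -1.26 without rhCYGB replicate 2, -0.31 without vehicle replicate 1 and -0.20 without rhCYGB replicate 3. Actins are near-identical in their coding parts, so how reads were divided between Acta2, Actg2 and the cytoplasmic actins is uncertain.

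The actin-binding proteins Tagln and Cnn1 followed Acta2 in which libraries were high. Tagln (gene 21345, chromosome 9, 45929628 to 45936058) encodes transgelin, a calponin-related protein that bundles actin. Its CPM was 32.8, 23.5 and 26.5 in vehicle livers and 20.1, 35.3 and 14.6 in rhCYGB livers. Replicate 2 with rhCYGB was again the highest library and replicate 3 the lowest, and the log2 fold change was -0.24 (SE 0.36). It was -0.67 without rhCYGB replicate 2 and 0.01 without rhCYGB replicate 3. Cnn1 (gene 12797, chromosome 9, 22099253 to 22109221), calponin, which damps the myosin motor in smooth muscle, had only 6 to 32 estimated counts per library. At 0.354 ± 0.0888 and 0.336 ± 0.215 CPM it showed a log2 fold change of -0.07 (SE 0.64), which was -0.69 without rhCYGB replicate 2 and 0.25 without rhCYGB replicate 3.

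The myosin side split into a light chain and its kinase. Myl9 (gene 98932, chromosome 2, 156775464 to 156781657) is the regulatory light chain that the kinase phosphorylates. Its CPM was 6.91, 8.58 and 8.43 in vehicle livers and 4.20, 16.996 and 5.60 in rhCYGB livers. The value in rhCYGB replicate 2 exceeded all others, and both remaining rhCYGB libraries lay below all vehicle libraries. The log2 fold change was 0.16 (SE 0.53), and -0.70 without rhCYGB replicate 2. With the trend on transcript length removed it was -0.42.

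Mylk (gene 107589, chromosome 16, 34784950 to 35002434), the light chain kinase, showed a different order of libraries. Its CPM was 42.4, 25.3 and 27.0 in vehicle livers and 36.3, 13.6 and 13.1 in rhCYGB livers. Here rhCYGB replicates 2 and 3 were both low, under every vehicle library, and rhCYGB replicate 1 lay within the vehicle range. The log2 fold change was -0.59 (SE 0.46, edgeR adjusted p = 0.580). Without rhCYGB replicate 1 it was -1.24 and passed (edgeR adjusted p = 0.0279), in a test that called 23.2% of all genes, 10.5% lower. It was -0.32 without vehicle replicate 1, -0.36 without rhCYGB replicate 2 and -0.35 without rhCYGB replicate 3, and did not pass in these. Limma-voom with sample quality weights also called it (-0.92, adjusted p = 0.0235), with 30.0% of all genes called and 13.9% lower. The one annotated Mylk transcript in the table is 7809 bases long, the longest of the members, and rhCYGB replicates 2 and 3 were the libraries short of long transcripts. With the length trend removed Mylk stood at 27.1, 26.4 and 26.0 CPM in vehicle livers and 28.1, 19.1 and 18.0 in rhCYGB livers, and its log2 fold change was -0.28 (SE 0.23, edgeR adjusted p = 0.550).

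**Figure D2:**
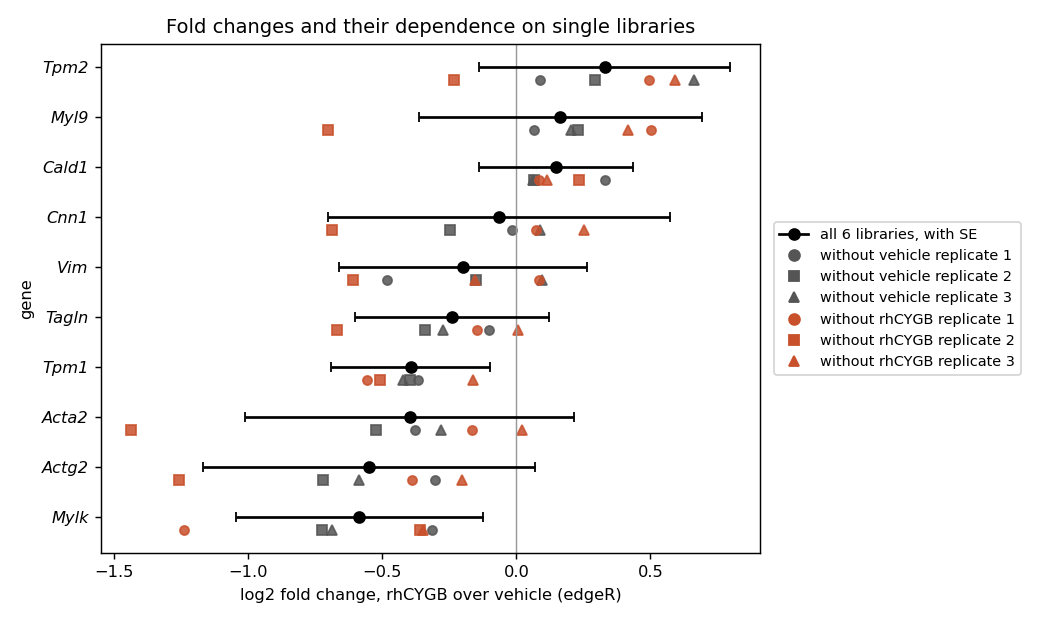
Log2 fold change of each gene, rhCYGB over vehicle, by edgeR, with its standard error in black, and below it the value with each library left out in turn. Leaving out rhCYGB replicate 2 moves Acta2 from -0.40 to -1.44 and leaving out rhCYGB replicate 1 moves Mylk from -0.59 to -1.24.

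Tropomyosins lie along the actin filament and set which motors can use it. Tpm1 (gene 22003, chromosome 9, 67022593 to 67049213) had 109.7, 105 and 102 CPM in vehicle livers and 96.7, 91.8 and 51.7 in rhCYGB livers. All 3 rhCYGB libraries lay below all vehicle libraries. Of the 10 members, 1 (Tpm1) had groups apart in CPM and lower, where 7.38% of all genes tested were, and 0 were apart and higher, where 6.02% of all genes were. Its log2 fold change was -0.39 (SE 0.30, edgeR adjusted p = 0.571), and -0.16 without rhCYGB replicate 3. In TPM the Tpm1 groups overlapped, at 184, 111 and 121 in vehicle livers and 125, 59.1 and 28.5 in rhCYGB livers. With the trend on transcript length removed they also overlapped. The values were then 133, 102 and 104 CPM in vehicle livers and 108, 75.1 and 45.4 in rhCYGB livers. Tpm2 (gene 22004, chromosome 4, 43513726 to 43523554), beta tropomyosin, was at 6.80, 10.002 and 15.0 CPM in vehicle livers and 10.1, 21.9 and 8.05 in rhCYGB livers. Its groups overlapped, with rhCYGB replicate 2 highest, and its log2 fold change was 0.33 (SE 0.47). It was -0.23 without rhCYGB replicate 2.

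Cald1 and Vim were the most abundant members in CPM. Cald1 (gene 109624, chromosome 6, 34598504 to 34775469), caldesmon, a brake on actin and myosin that also occurs in many non-muscle cells, had 299, 210.5 and 213 CPM in vehicle livers and 289, 234 and 278 in rhCYGB livers. The groups overlapped, and the log2 fold change was 0.15 (SE 0.29). With the length trend removed it was 0.42 (SE 0.21, edgeR adjusted p = 0.456). Cald1 then stood at 236, 209 and 203 CPM in vehicle livers and 249, 276 and 344 in rhCYGB livers. Vim (gene 22352, chromosome 2, 13574311 to 13582826), vimentin, the intermediate filament of mesenchymal cells and leukocytes, had 91.9, 171 and 222 CPM in vehicle livers and 79.2, 211 and 133 in rhCYGB livers. Low and high libraries occurred in both groups, and the log2 fold change was -0.20 (SE 0.46). In TPM Vim was the 1 member of 10 whose groups did not overlap, at 141, 165 and 243 in vehicle livers and 93.2, 124 and 66.4 in rhCYGB livers, where 12.7% of all genes were apart and lower.

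The spread between mice was compared next. The SD of CPM was larger with rhCYGB for 9 of 10, as it was for 74.2% of all genes tested. In rhCYGB replicate 3 the value was the lowest of the 6 libraries for 6 of 10 members, beside 33.4% of all genes. In TPM it was lowest there for 9 of 10, beside 59.7%. In rhCYGB replicate 2 the CPM was the highest for 5 of 10 (Acta2, Tagln, Cnn1, Myl9 and Tpm2), beside 14.2% of all genes. In CPM, replicate 2 was highest and replicate 3 lowest at once for Acta2, Tagln and Cnn1, beside 2.00% of all genes. In TPM a vehicle library was the highest for each of these 5 genes. Acta2 was at 12.3 TPM in rhCYGB replicate 2 and 21.7 in vehicle replicate 1, and Myl9 at 16.8 and 17.9. With the length trend removed, rhCYGB replicate 2 was still highest for Acta2, Cnn1, Myl9 and Tpm2 but not for Tagln. These 5 genes and this ordering were picked out after the values were seen. The rhCYGB libraries with the most and the least Acta2 CPM were those with the lowest length slopes and TMM factors, and the part of these in the result was not tested.

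Isoforms were next compared for the 3 members with more than 1 transcript in the table. Among 22 transcripts of the members, 0 passed the edgeR test with Benjamini-Hochberg adjustment over 19664 transcripts, which called 0% of all transcripts and found 4.04% at an unadjusted p under 0.05, 1.19% in the lower direction. DESeq2 called 268 of 22228 transcripts (1.21%), and the members' adjusted p-values were 0.578 to 0.982. Shares within a gene do not depend on the scaling of libraries, but the division of reads among isoforms is the assembler's estimate. With 3 libraries against 3, the smallest p that an exact permutation test can give is 0.1.

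Cald1 has an upstream start and an internal start 110940 bases further in, and each gives 1 transcript in the table. The upstream transcript made up 20.6%, 21.9% and 27.0% of Cald1 TPM in vehicle livers and 13.3%, 0.0738% and 0.111% in rhCYGB livers. In estimated counts this was 5319, 3310 and 4098 with vehicle against 3010, 10 and 12 with rhCYGB. The upstream form was thus near 0 in rhCYGB replicates 2 and 3, and the groups did not overlap. Both transcripts end at base 34775469, and they are of similar length, 4144 bases (upstream) and 4035 bases (internal). Across all genes, rhCYGB replicates 2 and 3 were short of long transcripts (length slopes -0.35 and -0.33 per doubling of length). The part of this in the upstream share was not tested. The difference was -18.7 percentage points (two-sided exact permutation p = 0.1, adjusted p = 0.2 over Cald1 and Tpm1, a comparison of start sites added after the values were seen). The share of the internal form, the more abundant one, gives the same p with an exact permutation adjusted p of 0.3 over the 3 genes. By edgeR the upstream transcript had a log2 fold change of -2.08 (SE 1.93, adjusted p = 0.821). The internal form was at 104 ± 52.1 TPM with vehicle and 86.1 ± 40.9 with rhCYGB (SD, n = 3), and its groups overlapped. Its log2 fold change by edgeR was 0.36 (SE 0.26, adjusted p = 0.804). Among 4531 tested genes with more than 1 expressed transcript, the share of the main transcript was apart between groups in 9.69%. Of 1398 genes with an upstream form above 5% of vehicle TPM, 48.6% had a lower mean share with rhCYGB, 4.01% had it lower without overlap, and 15.0% had it under 1% in both rhCYGB replicates 2 and 3.

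Tpm1 has 10 transcripts in the table, 6 from an upstream start and 4 from an internal start 5342 bases further in. In this gene family the upstream start gives long tropomyosins, typical of stress fibres and muscle, and the internal start gives short ones. Short forms prevailed in all libraries: Tpm1.9 held 54.7% ± 6.05 of Tpm1 TPM with vehicle and 63.1% ± 8.30 with rhCYGB (SD, n = 3, exact permutation p = 0.2, adjusted p = 0.3). Tpm1.8 held 18.7% ± 0.888 and 23.0% ± 5.44. The share from the upstream start was 30.2%, 17.8% and 28.7% in vehicle livers and 17.9%, 20.1% and 1.04% in rhCYGB livers. Only rhCYGB replicate 3 lay outside the vehicle range, with 16 estimated counts from the upstream start against 991 to 2813 in the other 5 libraries (two-sided exact permutation p = 0.3). The difference of -12.6 percentage points was -6.59 without it. Its main long forms, Tpm1.6 and Tpm1.7, were at 0 counts there and at 209 to 921 counts in the other libraries. The upstream share was lowest in rhCYGB replicate 3 for 17.7% of the 1398 genes. Tpm1.6 and Tpm1.7 are each 1702 bases long, and Tpm1.8 and Tpm1.9 are each 1675. The rhCYGB replicate 3 library also had a length slope of -0.33 per doubling of length and 1.74% of counts from Rn45s. The part of these in the Tpm1 share was not tested. For Tpm2, the main form, Tpm2.1, held 91.1% ± 3.34 and 86.5% ± 7.51 (exact permutation p = 0.5, adjusted p = 0.5). The difference in the Tpm2.1 share was -4.62 percentage points, -0.829 without rhCYGB replicate 3 and -8.33 without rhCYGB replicate 2. For Tpm1.9 it was 8.39 points and 4.04 without rhCYGB replicate 3.

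**Figure D3:**
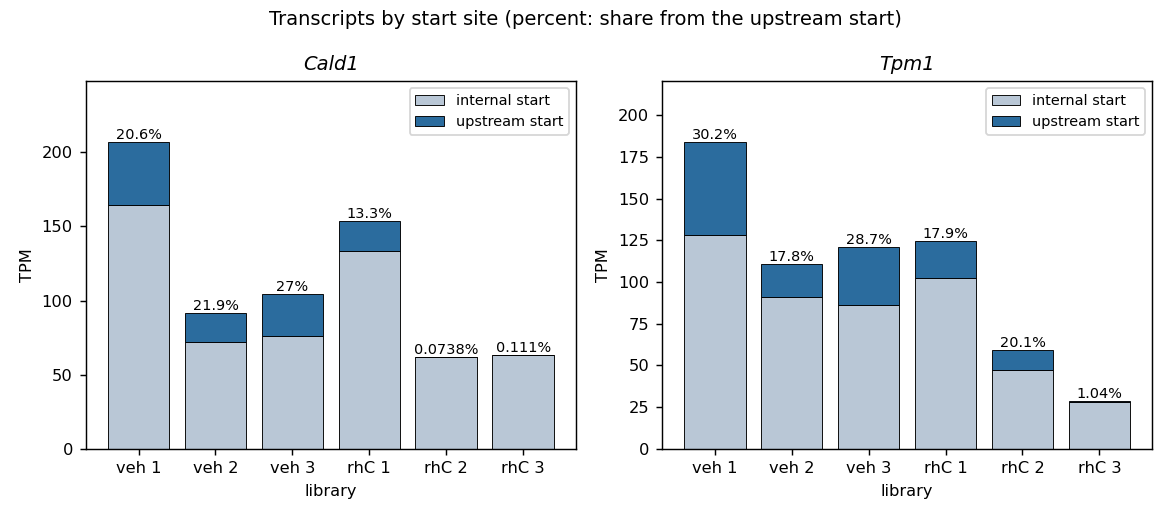
TPM of Cald1 and Tpm1 in each library (veh, vehicle; rhC, rhCYGB), split by the start site of the transcript, with the share from the upstream start in percent above each bar. The dark upstream part is at 0.0738% and 0.111% for Cald1 in rhCYGB replicates 2 and 3, and at 1.04% for Tpm1 in rhCYGB replicate 3.

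Ratios within a gene family give a second view that needs no scaling of libraries, but the trend on transcript length is not removed. They were chosen after the values were seen. Acta2 made up 1.34%, 0.849% and 1.15% of the summed TPM of Acta2, Actb and Actg1 in vehicle livers and 0.730%, 2.17% and 0.545% in rhCYGB livers. As with its CPM, rhCYGB replicate 2 was highest and replicate 3 lowest, and the groups overlapped (1.11% ± 0.246 and 1.15% ± 0.891, two-sided exact permutation p = 1, adjusted p = 1 over 5 families). The sum of Actb and Actg1 was 1603, 1251 and 1501 TPM in vehicle livers and 1079, 556 and 313 in rhCYGB livers. Acta2 itself was at 12.3 TPM in rhCYGB replicate 2, within the vehicle range of 10.7 to 21.7. In all 5 families the rest of the family was lower in TPM in rhCYGB replicates 2 and 3 than in every vehicle library. Tagln was 10.8% ± 2.74 and 9.49% ± 3.46 of the sum with Tagln2, its relative in non-muscle cells (exact permutation p = 0.7). Cnn1 was 0.186% ± 0.0454 and 0.190% ± 0.0987 of the 3 calponins (exact permutation p = 0.9). Myl9 was 2.47% ± 0.225 and 2.44% ± 1.31 of the sum with Myl12a and Myl12b (exact permutation p = 1). Tpm1 and Tpm2 together were 40.8% ± 0.856 and 41.9% ± 6.57 of the 4 tropomyosin genes (exact permutation p = 0.9). For all 5 families the groups overlapped, the adjusted p was 1 and the spread was wider with rhCYGB.

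**Figure D4:**
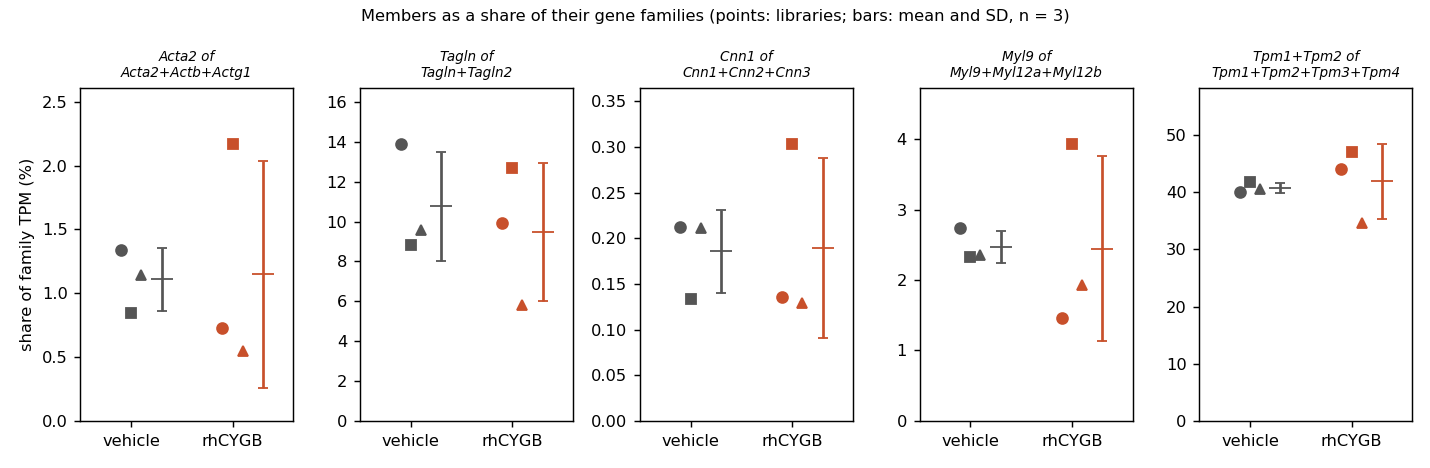
Share of each member, in percent, of the summed TPM of the family named above each panel, by library (circle, square and triangle for replicates 1 to 3), with the group mean and SD beside the points. In the Acta2 panel the rhCYGB square is at 2.17% and the rhCYGB triangle at 0.545%, on either side of all vehicle libraries.

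The partners of these genes were taken from lists, and their values below are mean CPM ± SD (n = 3) with vehicle and then with rhCYGB. Each list's median log2 fold change stands beside -0.06 for all genes tested, of which 53.3% had a lower mean. Counts at an unadjusted p under 0.05 stand beside 2.06% of all genes for lower and 6.06% for higher, and counts of genes with groups apart beside 7.38% and 6.02%. Of 15 tested further smooth-muscle contractile genes, 11 had a lower mean CPM with rhCYGB and 0 had an unadjusted p under 0.05, with a median log2 fold change of -0.32. Flna, a filamin that crosslinks actin, was at 98.2 ± 19.0 and 69.4 ± 15.0 CPM, and Csrp1, a LIM protein of smooth muscle, at 36.7 ± 1.64 and 28.7 ± 5.93. The groups were apart, lower with rhCYGB, for 2 of the 15, Csrp1 and Smtn, the latter named after its values were seen. Myh11, the smooth-muscle myosin heavy chain, was at 3.17 ± 0.717 and 3.21 ± 1.71 CPM. Of 12 tested SRF and related regulators, 9 were lower with a median of -0.32 and 0 were at an unadjusted p under 0.05. The groups were apart, lower, for 1 of them, Klf4, named after its values were seen. Yap1, a coactivator of TEAD factors, was at 40.7 ± 8.09 and 33.3 ± 11.1 CPM and Wwtr1 at 21.2 ± 3.77 and 22.8 ± 2.76. Srf itself was at 13.3 ± 1.34 and 12.9 ± 2.42 CPM. Myocd, the smooth-muscle coactivator of SRF, had 5 estimated counts in vehicle replicate 1 and 0 in the other libraries.

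Of 16 tested genes that control myosin phosphorylation, 12 were lower, with a median of -0.22, 0 at an unadjusted p under 0.05 and 0 with groups apart. Rhoa, the switch that restrains myosin phosphatase, was at 178 ± 9.14 and 151 ± 31.5 CPM. Of 13 tested relatives of the members, 11 were lower, with a median of -0.17, 3 had groups apart, lower, and 1 had an unadjusted p under 0.05. That was Actg1, a cytoplasmic actin, at 364 ± 15.7 and 221 ± 50.2 CPM (edgeR unadjusted p = 0.0427, adjusted p = 0.523), named after its values were seen. By the mean over all 6 libraries the most abundant were Actb at 931 ± 185 and 647 ± 152 CPM and Myl6, an essential myosin light chain, at 292 ± 100.95 and 425 ± 165. A lower mean in TPM was found for 15 of 15 contractile genes and 12 of 12 SRF and related regulators. It was found for 14 of 16 phosphorylation genes and 13 of 13 relatives, beside 86.8% of all genes.

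Among the 5 genes outside the list whose log2 CPM followed Acta2 most closely over the 6 libraries, out of 9408 candidates, were Cnih4, Gins2, Fancl and Cdk5rap2. For these 4 Pearson r ran from 0.963 to 0.973 and Spearman rho from 0.943 to 1, as a description of the genes with the highest values, with no p. Without rhCYGB replicates 1 and 3, the libraries farthest from the median, r ran from 0.725 to 0.990. Gins2 had 8.22, 6.46 and 8.43 CPM in vehicle livers and 5.83, 11.4 and 2.05 in rhCYGB livers, with replicate 2 highest and replicate 3 lowest, as for Acta2.

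Markers of the cells that could supply these transcripts were set beside the members. Hepatocyte markers were by far the highest, at a summed 67439 to 113280 CPM with vehicle and 103320 to 211700 with rhCYGB, with 10 of 10 higher in CPM and 2 with groups apart, higher. In TPM, without TMM factors, the sums were 93935 to 107680 and 108670 to 121850, and 5 of 10 had a lower mean. They were led by Alb at 63542 ± 15808 and 117970 ± 39949 CPM and Apoa1 at 6788 ± 3247 and 20639 ± 12768. Stellate markers summed to 404 to 466 CPM with vehicle and 386 to 614 with rhCYGB. Of the 12 tested, 8 were lower (10 in TPM), 2 of them with groups apart and at an unadjusted p under 0.05 (Pdgfrb and Cygb, named after their values were seen), and among the most abundant was Ecm1 at 68.0 ± 1.91 and 113 ± 44.9 CPM. Portal fibroblast and mesothelial markers summed to 160 to 208 and 140 to 198 CPM, with 5 of 15 lower in CPM but 14 of 15 lower in TPM, led by Gas6 at 107 ± 21.3 and 81.8 ± 16.2 and Entpd2 at 15.5 ± 4.10 and 15.9 ± 0.491.

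Vascular smooth-muscle markers were sparse, at a summed 12.5 to 17.6 and 12.1 to 21.6 CPM over 7 tested genes, 3 of them lower in CPM and 6 in TPM, with Mustn1 at 7.32 ± 2.26 and 8.78 ± 2.90 CPM as the most abundant. Skeletal and heart muscle markers summed to 0.828 to 2.09 and 1.26 to 3.77 CPM, mostly Mylpf at 0.809 ± 0.401 and 2.24 ± 1.45 and Tnni2 at 0.344 ± 0.155 and 0.321 ± 0.239. Of 14 listed only 3 were tested, 2 of them lower in CPM and in TPM and 1 with groups apart, lower, and 5 were at 0 in every library. The skeletal actin gene Acta1 had at most 4 estimated counts and Ckm at most 6. Leukocyte markers, cells that also make vimentin, summed to 1017 to 1910 and 861 to 1566 CPM, with 9 of 10 lower in CPM and 10 in TPM, 2 with groups apart and 1 at an unadjusted p under 0.05 (Itgam, named after its values were seen), led by Lyz2 at 985 ± 352 and 772 ± 315 and Csf1r at 162 ± 31.5 and 149 ± 29.2. Endothelial markers summed to 120 to 159 and 91.5 to 164 CPM, with 6 of 9 lower in CPM and 8 in TPM, led by Clec4g at 29.9 ± 4.94 and 35.3 ± 13.6 and Stab2 at 29.2 ± 6.12 and 23.9 ± 5.44. Bile duct markers summed to 975 to 1088 and 230 to 614 CPM, with 6 of 9 lower in CPM and 9 in TPM, 2 with groups apart, lower. Most of the sum was Spp1 at 921 ± 46.3 and 318 ± 215, the 1 of them at an unadjusted p under 0.05, while Krt19 was at 20.7 ± 1.65 and 31.7 ± 15.9. The part of these cell types in the members' values was not tested.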

How the data were processed

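Liver RNA of 6 mice, 3 per group, was compared. The titles carry a different animal number for every library, so replicates are separate mice. Replicate numbers follow the order of deposition and pair no animals. The authors deposited estimated counts and FPKM for each gene and transcript, per the file headers. Per the submitters' processing notes, FastQC 0.11.7, HISAT2 2.1.0, StringTie 1.3.4d and build mm10 were used. The kit was stranded, per the labels' protocols. For the annotation release and the strand setting of the counting, the sources used here give nothing, so overlapping and antisense genes are uncertain. The deposited counts equalled FPKM times transcript length times a constant for each library, within 1%, in transcripts with over 500 counts. Depth was 58422095 to 72431373 estimated counts per library, and the replicate spread sets the precision.

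Whole-number counts were tested in R 4.3.3 with edgeR 4.0.16 (filterByExpr, TMM, robust quasi-likelihood F test, Benjamini-Hochberg over all genes or transcripts kept, threshold 0.05). The procedure was tested on simulated data that held no length trend between libraries. Each SE was obtained by dividing the fold change (log2) by the root of the F statistic. FPKM was rescaled to TPM. Shares were compared by two-sided exact permutation tests (scipy 1.17.1). Alternatives used DESeq2 1.42.0, limma 3.58.1, other scalings and filters, log2(TPM + 1) and log2(TPM + 0.1), removal of a loess trend on length, and each library left out. All 10 members are named, plus the 2 most abundant of each list and the 5 genes most like Acta2. Some genes that this rule names are not reported here. Srf, Myh11 and Myocd were named by role, outside that rule, as were genes said to be named after their values were seen. The members, lists and tests were chosen with earlier results of these data known. Start-site and family shares were added after seeing the values.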

Additional observations from a re-analysis of the deposited data

How the results depend on the processing

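The replicate numbers follow the order of deposition. No paired analysis was possible because the labels give the groups no shared replicate numbers. Of 158 member fold changes under 16 alternatives, 135 kept direction and did not pass, 21 changed sign and 2 (both Mylk) passed. The 135 include the DESeq2 values of Acta2, Tagln, Myl9, Cnn1, Tpm2, Mylk and Actg2, which had no adjusted p. Tpm1 and Mylk were the 2 members that never changed sign. Genes past the threshold numbered 0 with edgeR, 65 with DESeq2 and 4323 with limma-voom and sample quality weights. With each library left out they ranged from 0 to 3391, the latter without rhCYGB replicate 1. Transcripts past the threshold numbered 268 with DESeq2, and 0 to 958 with a library left out, the latter also without rhCYGB replicate 1. With a library left out, members with a lower mean numbered 4 (without rhCYGB replicate 3) to 9 (without rhCYGB replicate 2). On both TPM scales they numbered 10. With a library left out their median log2 fold change ranged from -0.64 (without rhCYGB replicate 2) to 0.014 (without rhCYGB replicate 3). It was 0.15 with quality weights, -0.86 on log2(TPM + 1) and -1.01 on log2(TPM + 0.1). The median of all genes was -0.50 and -0.75 on these TPM scales, -0.18 with upper-quartile factors and 0.01 without vehicle replicate 1, with a range of -0.13 to 0.01 when a library was left out. Signs changed for Myl9 with limma-voom (-0.12) and with the length trend removed (-0.42). With quality weights they changed for Acta2 (0.14), Tagln (0.23), Cnn1 (0.40) and Actg2 (0.13). On log2(TPM + 1) they changed for Myl9 (-0.76), Cald1 (-0.57) and Tpm2 (-0.41), and on log2(TPM + 0.1) for Myl9 (-0.84), Cald1 (-0.57) and Tpm2 (-0.47). With a library left out, Acta2 ranged from -1.44 to 0.022, Tagln from -0.67 to 0.0052, Myl9 from -0.70 to 0.50, Cnn1 from -0.69 to 0.25, Tpm2 from -0.23 to 0.66, Mylk from -1.24 to -0.32, Actg2 from -1.26 to -0.20, Tpm1 from -0.56 to -0.16, Cald1 from 0.06 to 0.33 and Vim from -0.61 to 0.10. The family share differences ranged, in percentage points, from -0.474 to 0.340 for Acta2, -2.89 to 0.546 for Tagln, -0.0530 to 0.0340 for Cnn1, -0.777 to 0.457 for Myl9 and -1.46 to 4.83 for the tropomyosins. From counts in place of TPM the Myl9 difference was 0.0155. The cause was not tested. At 6 to 32 counts per library for Cnn1 and 9 to 90 for Actg2, counting error adds to the spread between mice.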
